A study of Mus musculus with 6 samples.

Results

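The pigment genes of melanocytes and of the iris are 9 genes, Tyr, Tyrp1, Dct, Pmel, Mlana, Slc45a2, Oca2, Mitf and Gpr143. They were chosen by symbol, as rows of the deposited gene table whose gene name is one of these, and each matched 1 of 28539 loci, with no other gene named on the row. RNA-seq of polyadenylated transcripts was done on corneas of female C57BL/6J mice aged 6 to 8 weeks, a black strain with working tyrosinase. There were 6 samples in 3 groups of 2: untreated corneas (day 0), corneas 5 days after an alkali burn and corneas 15 days after it, the last described in the labels as regression. The labels give neither the number of animals behind a sample nor whether corneas were pooled.

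Melanin is made in melanosomes, lysosome-related organelles of melanocytes and of the pigmented epithelia of iris, ciliary body and retina. Tyrosinase oxidises tyrosine, relatives of tyrosinase process the next intermediates, a fibrillar protein gives the pigment a scaffold, and transporters set the pH of the organelle. The transcription factor MITF switches on many of these genes. The clear cornea itself carries no pigment, while its limbal rim and the iris behind it do.

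The values are the authors' FPKM (fragments scaled to transcript length and library size), so that levels can be compared between genes per length. The table gives 1 FPKM per group, pooled over its 2 samples, with the lower and upper bound of the authors' interval, printed here in brackets. With 0 columns of values per sample, the spread within a group cannot be shown, no test was possible, no p-value is given and the depth is unknown. A locus is called apart between groups when the authors' intervals do not overlap, the larger FPKM is 1 or more, the log2 ratio of (FPKM + 1) is 1 or more in either direction, and the status of both values is OK. That pseudocount of 1 understates the difference of low genes, whereas folds are plain ratios of FPKM. In bulk tissue, fewer cells of a type and less RNA per cell cannot be told apart.

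The upstream sequences of the tyrosinase family are shown because these 3 genes hold the same pigment-cell motif. The RefSeq table on GRCm38.p6 gave windows of 300 bases, from 250 before to 50 after a gene start, for 5 of the 9 genes: Tyr, Tyrp1, Dct, Oca2 and Mitf, the last with 3 windows. Capitals mark TCATGTGCT, which is 9 bases of the M-box, the element known to be bound by MITF. Tyr was read on the minus strand at chr7:87493463-87493762, Tyrp1 on the plus strand at chr4:80833963-80834262, and Dct on the minus strand at chr14:118052197-118052496.
Tyr: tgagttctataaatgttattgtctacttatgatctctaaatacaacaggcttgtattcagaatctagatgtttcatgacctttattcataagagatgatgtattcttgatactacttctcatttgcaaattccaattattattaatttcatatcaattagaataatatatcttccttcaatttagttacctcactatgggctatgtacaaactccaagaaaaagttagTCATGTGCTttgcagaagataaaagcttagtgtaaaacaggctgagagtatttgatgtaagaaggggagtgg
Tyrp1: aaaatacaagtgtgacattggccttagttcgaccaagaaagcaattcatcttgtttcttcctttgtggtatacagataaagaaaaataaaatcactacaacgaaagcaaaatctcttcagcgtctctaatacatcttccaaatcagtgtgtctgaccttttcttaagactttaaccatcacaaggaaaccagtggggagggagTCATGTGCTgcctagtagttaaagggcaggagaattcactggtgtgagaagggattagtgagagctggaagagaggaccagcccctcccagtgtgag
Dct: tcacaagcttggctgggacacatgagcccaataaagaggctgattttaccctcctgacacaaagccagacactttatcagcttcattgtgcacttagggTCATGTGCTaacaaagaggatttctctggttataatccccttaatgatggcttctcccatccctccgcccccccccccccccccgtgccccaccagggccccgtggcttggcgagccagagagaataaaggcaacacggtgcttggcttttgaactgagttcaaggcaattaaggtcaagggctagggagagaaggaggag

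The first capital stands at position -22 in Tyr, -47 in Tyrp1 and -151 in Dct, counted from the gene start. With its 2 preceding bases the element reads AGTCATGTGCT in Tyr and in Tyrp1, and GGTCATGTGCT in Dct. On either strand the 9 bases occur in 134 of 32851 promoter windows of the whole table, or 0.408%. The 6-base core CATGTG, which the longer motif contains, occurs in 14.2% of all windows on either strand. It was found in Oca2 at -186 and a further time in Dct at -232, on the other strand in both. The Mitf windows hold neither motif, and the E-box CACGTG, present in 7.15% of all windows, was in none of the 7 windows. No binding was measured here.

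**Figure D1:**
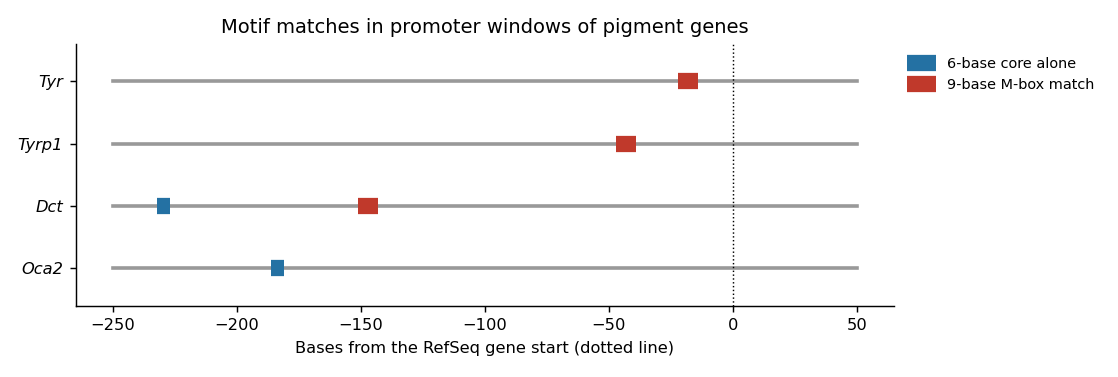
Motif matches in the promoter windows of Tyr, Tyrp1, Dct and Oca2, by distance in bases from the RefSeq gene start. Red blocks are the 9-base match, at -22, -47 and -151; blue blocks are the 6-base core outside such a match, and the Mitf windows, which hold neither, are not drawn.

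In uninjured corneas the pigment genes covered a wide range of levels. Mlana was highest, at 159 FPKM (47.4 to 271), and Gpr143 lowest, at 0.389 (0 to 0.956). Dct, Tyrp1 and Pmel stood between them in falling order, followed by Tyr, Oca2, Mitf and Slc45a2. The intervals of all neighbours in that order overlapped on day 0, but those of Mlana, Dct and Tyrp1 lay wholly above that of Tyr in all 3 groups. In both burned groups Dct was first and Mlana second, and Mitf stood above Oca2, again with overlapping intervals within each pair.

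Day 5 set against day 0 shows the early state of the burned cornea. All 9 pigment genes had a lower FPKM at day 5, 6 of them by more than 3-fold. Among all loci whose larger FPKM reached 1, 55.1% were lower, and no share was computed for 3-fold. Of those 6 genes, Oca2, Slc45a2 and Gpr143 were near the floor at day 5, with 0.468, 0.333 and 0.0802 FPKM and intervals that reach 0. Of the 8 pigment genes that reached an FPKM of 1 in either group, 1 was lower and apart, Tyrp1, and none was higher and apart. Over all loci so tested, 2.5% were lower and apart and 3.42% higher and apart, and a count of 1 sets these genes off from the rest in neither direction. By fold alone, without the intervals, 5 of the 8 had a log2 ratio of -1 or below and none a ratio of 1 or above, against 11.1% and 10.8% of all loci. The median log2 ratio of the 8 genes was -1.37, from -2.33 for Mlana to -0.21 for Mitf, and that of all loci with FPKM of at least 1 in any group was -0.08.

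At day 15 the FPKM of the 9 genes stood between 0.554 of the day 0 value, for Pmel, and 1.35 of it, for Mitf. None of the 8 was apart from day 0 in either direction, beside 1.81% of all loci lower and apart and 2.91% higher and apart. Their median log2 ratio to day 0 was -0.27, beside -0.08 for all loci. Of the 8 values 6 were below 0 and 2 above it, beside 56.9% and 43.1% of all loci. By fold alone none of the 8 passed, against 9.43% of all loci lower and 8.36% higher. Against day 5, all 9 were higher at day 15, where 48.8% of all loci were. Of 7 with FPKM of at least 1 in either burned group, 2 were higher and apart, Dct and Tyrp1, where 0.395% of all loci were. None was lower and apart, where 0.388% of all loci were. By fold alone 4 of the 7 were higher and none lower, against 2.62% and 3.35% of all loci. The median log2 ratio of day 15 to day 5 was 1.07 over 8 genes, against -0.01 for all loci. Both comparisons at day 5 rest on the same day 5 libraries, and both comparisons with day 0 on the same day 0 libraries, so that they are not independent of each other.

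**Figure D2:**
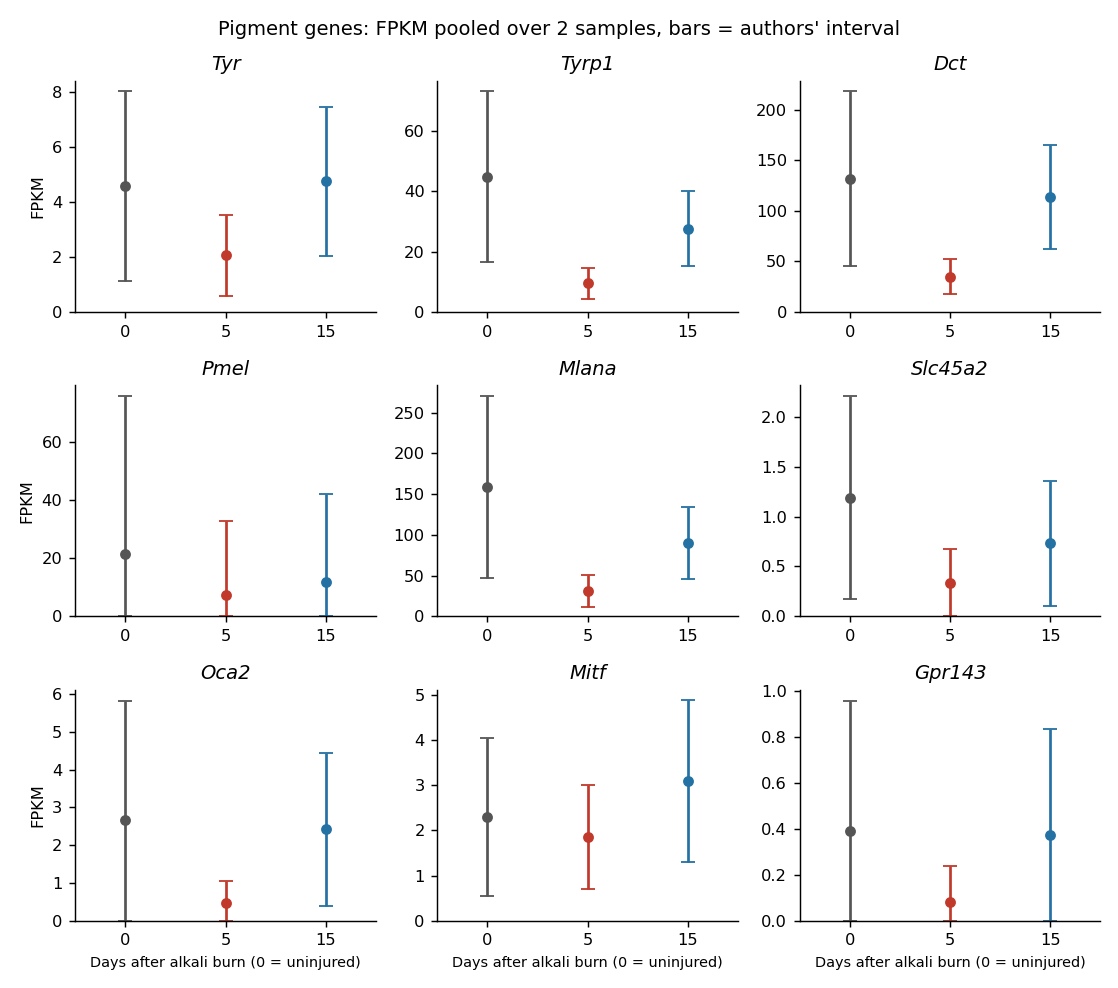
FPKM (linear axis from 0, a scale of its own in each panel) of the 9 pigment genes by day after the burn, with day 0 uninjured. Points are the authors' value pooled over 2 samples and bars the authors' interval; every gene has its lowest point at day 5, with bars that overlap those of day 0 except for Tyrp1.

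The enzymes of melanin synthesis come first. Tyrp1, the tyrosinase-related protein that in mice oxidises an indole intermediate of black melanin (chromosome 4, 80834213 to 80851736, plus strand), had an FPKM of 44.9 (16.6 to 73.1) at day 0, 9.49 (4.39 to 14.6) at day 5 and 27.6 (15.2 to 40.1) at day 15. Day 5 was the low group, and its interval missed that of day 0 by 2.02 FPKM and that of day 15 by 0.574. The log2 ratio was -2.13 between day 5 and day 0, a 4.73-fold lower FPKM, -0.68 between day 15 and day 0 and 1.45 between day 15 and day 5.

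Dct, dopachrome tautomerase, which forms that indole (chromosome 14, 118011337 to 118052266, minus strand), had 132 (45.1 to 218) at day 0, 34.9 (17.5 to 52.3) at day 5 and 114 (62.5 to 165) at day 15. At day 5 it was 3.78-fold lower than at day 0, a log2 ratio of -1.89, but the intervals overlapped by 7.20 FPKM. Day 15 was apart from day 5, with a gap of 10.2 FPKM and a log2 ratio of 1.68, and stood at 0.863 of the day 0 value. The annotation places a non-coding gene, 4930435M08Rik, inside Dct on the other strand, and the strandedness of the libraries is not given in the sources used here.

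Tyr, tyrosinase, the rate-limiting enzyme (chromosome 7, 87427405 to 87493411, minus strand), was the lowest of the 3 enzymes. It had 4.59 (1.14 to 8.03) at day 0, 2.06 (0.596 to 3.52) at day 5 and 4.76 (2.04 to 7.48) at day 15. The day 5 value was 2.23-fold lower than at day 0, with a log2 ratio of -0.87 and overlapping intervals, and at day 15 the log2 ratio to day 0 was 0.04. Relative to Tyrp1 in the same group, Tyr stood at a ratio of 0.102 on day 0, 0.217 on day 5 and 0.172 on day 15. For Dct the same ratio was 2.94, 3.68 and 4.12. No interval of these ratios can be had from the deposited values.

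Of the structural proteins, Mlana, a small membrane protein of early melanosomes (chromosome 19, 29697582 to 29708355), had the lowest log2 ratio of the 9 at day 5. Its FPKM was 159 (47.4 to 271) at day 0, 30.8 (11.4 to 50.1) at day 5 and 89.5 (45.2 to 134) at day 15. That was 5.17-fold lower at day 5 than at day 0, with intervals that overlapped by 2.69 FPKM, and at day 15 the intervals of both other groups were overlapped as well. Relative to Tyrp1 it held nearly the same ratio in all groups, 3.54 at day 0, 3.24 at day 5 and 3.24 at day 15.

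Pmel, which forms the amyloid fibrils on which melanin settles, had 21.4 (0 to 75.5) at day 0, 7.39 (0 to 32.7) at day 5 and 11.9 (0 to 41.9) at day 15. All 3 intervals reach 0, and their half-width was 253% of the FPKM at day 0 and 342% at day 5. Its locus (chromosome 10, 128705201 to 128746310) is 2.56 times as long as the annotated gene and runs over Dgka, a diacylglycerol kinase gene on the other strand whose end overlaps that of Pmel. Dgka has a row of its own, with 53.3, 33.4 and 48.2 FPKM at days 0, 5 and 15. The Pmel value is therefore uncertain.

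The transporters and the receptor of the melanosome membrane were near the limit of what the table resolves. Oca2, an anion channel that raises melanosomal pH (chromosome 7, 56239626 to 56536517), had 2.66 (0 to 5.82) at day 0, 0.468 (0 to 1.05) at day 5 and 2.41 (0.390 to 4.44) at day 15. The plain ratio of day 5 to day 0 of Oca2, 0.176, was the lowest of the 9, although its log2 ratio with the pseudocount was -1.32, and a non-coding gene, Gm44506, lies inside it on the other strand. Slc45a2, a transporter that also acts on melanosomal pH (chromosome 15, 11000721 to 11029233), had 1.19 (0.170 to 2.21), 0.333 (0 to 0.678) and 0.731 (0.105 to 1.36) at days 0, 5 and 15. Gpr143, the G protein-coupled receptor altered in ocular albinism (chromosome X, 152781921 to 152808646), had 0.389 (0 to 0.956), 0.0802 (0 to 0.238) and 0.372 (0 to 0.835), and did not reach an FPKM of 1 in any group. The 3 genes had the day 5 value as their lowest, and no pair of intervals was apart.

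Mitf, the transcription factor of pigment cells, differed least between day 5 and day 0. It had 2.30 (0.549 to 4.05) at day 0, 1.86 (0.704 to 3.01) at day 5 and 3.10 (1.29 to 4.90) at day 15, with overlapping intervals throughout. Its log2 ratio to day 0 was -0.21 at day 5 and 0.31 at day 15. Relative to Tyrp1 in the same group it stood at 0.0512, 0.196 and 0.112 on days 0, 5 and 15. Mitf is also known from macrophages and mast cells, whose markers are given with the other tissues. The locus (chromosome 6, 97807058 to 98021358) holds several start sites, which the gene table adds together.

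**Figure D3:**
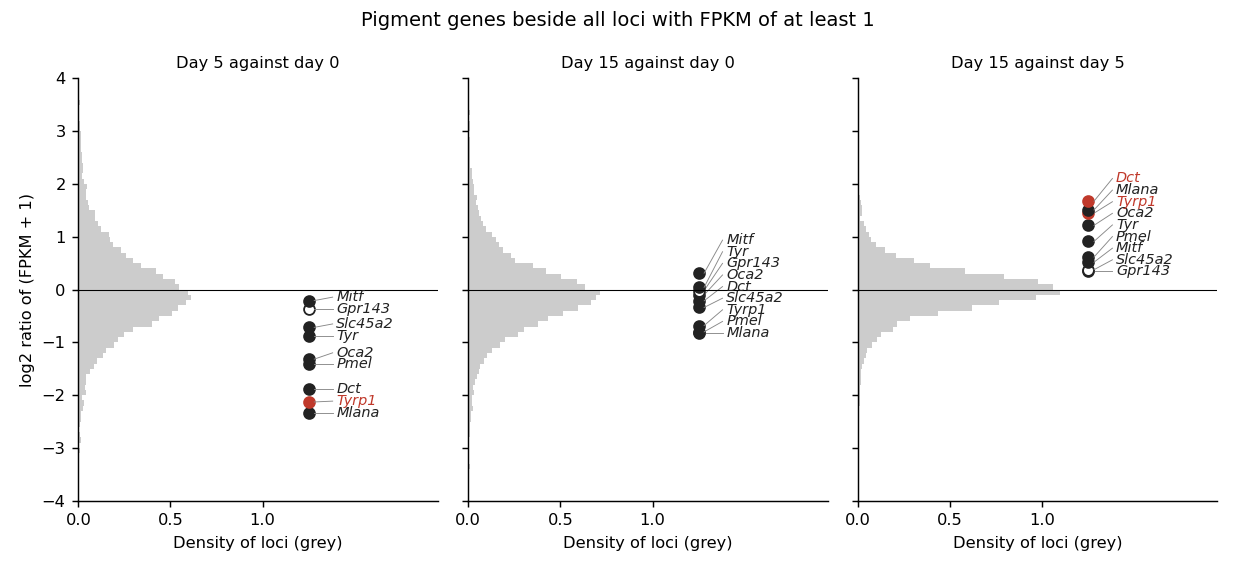
Log2 ratio of (FPKM + 1) for the 9 pigment genes (points) beside the distribution over all loci whose larger FPKM reached 1 (grey, density). Red marks genes called apart, Tyrp1 at day 5 against day 0 and Dct and Tyrp1 at day 15 against day 5; open points are genes below that level, and loci beyond 4 in either direction are not drawn.

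Other genes of melanosome assembly and transport did not move as one. All 27 genes of that list were found, and 21 stood below their day 0 level at day 5, where 55.1% of all loci did. Of the 27, 1 was lower and apart and 1 higher and apart, beside 2.5% and 3.42% of all loci, and the median log2 ratio was -0.27. At day 15, 1 was higher and apart from day 0 (2.91% of all loci), none was lower and apart (1.81% of all loci), and the median was -0.21. Below day 0 at day 15 stood 21 of the 27, where 56.9% of all loci did. Between day 15 and day 5 none was apart, and the median was 0.14. These genes serve lysosome-related organelles in many cell types, so that the list is less particular to pigment cells than the 9 genes.

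Slc24a5, an ion exchanger known mainly from pigment cells, had 13.6 (0 to 30.2) at day 0, 2.20 (0 to 5.44) at day 5 and 6.63 (0.985 to 12.3) at day 15. The log2 ratio of -2.18 at day 5 was the lowest of the 27, and its intervals overlapped. It shares its locus with Myef2 on the other strand, which makes its value uncertain. Mreg, melanoregulin, which takes part in melanosome transfer, had 61.3 (32.7 to 90.0), 18.8 (8.63 to 28.9) and 25.7 (12.2 to 39.1) at days 0, 5 and 15. It was lower and apart at day 5, with a log2 ratio of -1.66, and not apart at day 15, at -1.23.

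Rab27a, the small GTPase that tethers melanosomes to actin and that secretory and blood cells also use, went the other way. It had 9.23 (4.74 to 13.7) at day 0, 41.0 (23.0 to 59.0) at day 5 and 68.5 (37.2 to 99.8) at day 15. It was higher and apart from day 0 on both days, with log2 ratios of 2.04 and 2.76. Its partners were not apart: Mlph, the adaptor melanophilin, had 5.71, 6.08 and 6.78, and the motor gene Myo5a 2.73, 6.18 and 5.84. Gpnmb, a melanosomal glycoprotein that macrophages also make, had 20.2 (9.21 to 31.3), 26.5 (14.2 to 38.8) and 54.0 (31.2 to 76.8). Its log2 ratio of 1.37 at day 15 against day 0 missed the call by an overlap of the intervals. Bloc1s5, a subunit of an organelle biogenesis complex, had a log2 ratio of -1.16 at day 5 and was not apart, nor was Hps3, of a related complex, which stood 0.61 higher at day 15 than at day 5.

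Among 23 regulators and signals of melanocytes, 22 were found, 2 of them, Usf1 and Zeb2, on rows that name a further gene. Of the other 20, 12 reached an FPKM of 1 in any group. At day 5, 8 of the 12 stood below day 0, against 55.1% of all loci, and the median log2 ratio was -0.53. At that time 2 were lower and apart and none higher and apart, beside 2.5% and 3.42% of all loci. At day 15, 1 was lower and apart from day 0, beside 1.81% of all loci, at a median of -0.23. No gene of the list was apart between day 15 and day 5, where the median was 0.19. Of all loci only 0.395% were higher and apart there and 0.388% lower and apart, so that none is what so short a list would give.

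Ednrb, the endothelin receptor that melanoblasts need, had 55.2 (27.6 to 82.8) at day 0, 10.4 (4.32 to 16.5) at day 5 and 12.7 (5.51 to 19.8) at day 15. It was lower and apart on both days, with log2 ratios of -2.30 and -2.04, and is also made by glia, endothelium and stromal cells. Its ligand gene Edn3 had 14.3 (4.16 to 24.5), 3.29 (0.809 to 5.77) and 11.1 (4.95 to 17.2). Edn3 was not apart in any comparison, at log2 ratios of -1.84 for day 5 and -0.34 for day 15 against day 0. At day 15 Edn3 stood at 0.773 of its day 0 value and Ednrb at 0.229.

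Kit, the receptor of stem cell factor on melanocytes and mast cells, had 21.5 (12.0 to 31.0), 13.3 (7.34 to 19.2) and 9.65 (5.19 to 14.1), with its lowest value at day 15. The log2 ratio of day 15 to day 0 was -1.08, with overlapping intervals. Its ligand gene Kitl had 12.0, 17.0 and 19.1. Sox10, a factor of melanocytes and Schwann cells, had 0.746 (0 to 1.51), 0.383 (0 to 0.869) and 0.467 (0 to 0.956), below an FPKM of 1 in all groups. The remaining regulators named by size of ratio were Tfap2a and Tfap2b of the AP-2 family, Tfe3, a relative of MITF, and the merged Zeb2 row. Their log2 ratios were -0.81 for Tfap2a at day 15 against day 0, 0.59 for Tfap2b and -0.48 for Tfe3 at day 15 against day 5, and 1.12 and 1.24 for the Zeb2 row at days 5 and 15 against day 0. None of the 4 was apart.

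Trpm1, a cation channel gene of melanocytes and of retinal bipolar cells, had 12.1 (4.50 to 19.7) at day 0, 2.44 (0.403 to 4.47) at day 5 and 9.94 (3.79 to 16.1) at day 15. It was lower and apart at day 5 by a gap of only 0.0269 FPKM, with a log2 ratio of -1.93, and 1.67 higher on the log2 scale at day 15 than at day 5, with overlapping intervals. Trpm1 hosts the gene of miR-211, which shares its seed with miR-204, the microRNA named in the title of the study. Both are printed 5′ to 3′ from RefSeq on GRCm38.p6, with the seed, bases 2 to 8, in capitals, and they differ at 1 base outside it.
mmu-miR-211-5p: uUCCCUUUgucauccuuugccu
mmu-miR-204-5p: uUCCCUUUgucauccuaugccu

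The 2 microRNAs are encoded at chr7:64205831-64205852 inside Trpm1 and at chr19:22750610-22750631. The row of Mir211 was listed at 0 in all 3 groups, in libraries of polyadenylated RNA that do not measure mature microRNA. The host row of miR-204, Trpm3, had 129 (11.3 to 247) at day 0, 3.25 (0 to 7.79) at day 5 and 6.76 (0 to 14.0) at day 15. Trpm3 was lower and apart from day 0 at day 5, with a log2 ratio of -4.94. The row of Mir204 had 8.11 (0 to 18.3), 0.305 (0 to 2.08) and 0.720 (0 to 2.71) at days 0, 5 and 15, with overlapping intervals. At day 15 Trpm3 stood at 0.0524 of its day 0 value and Trpm1 at 0.823, with intervals that overlapped those of day 0 for both.

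**Figure D4:**
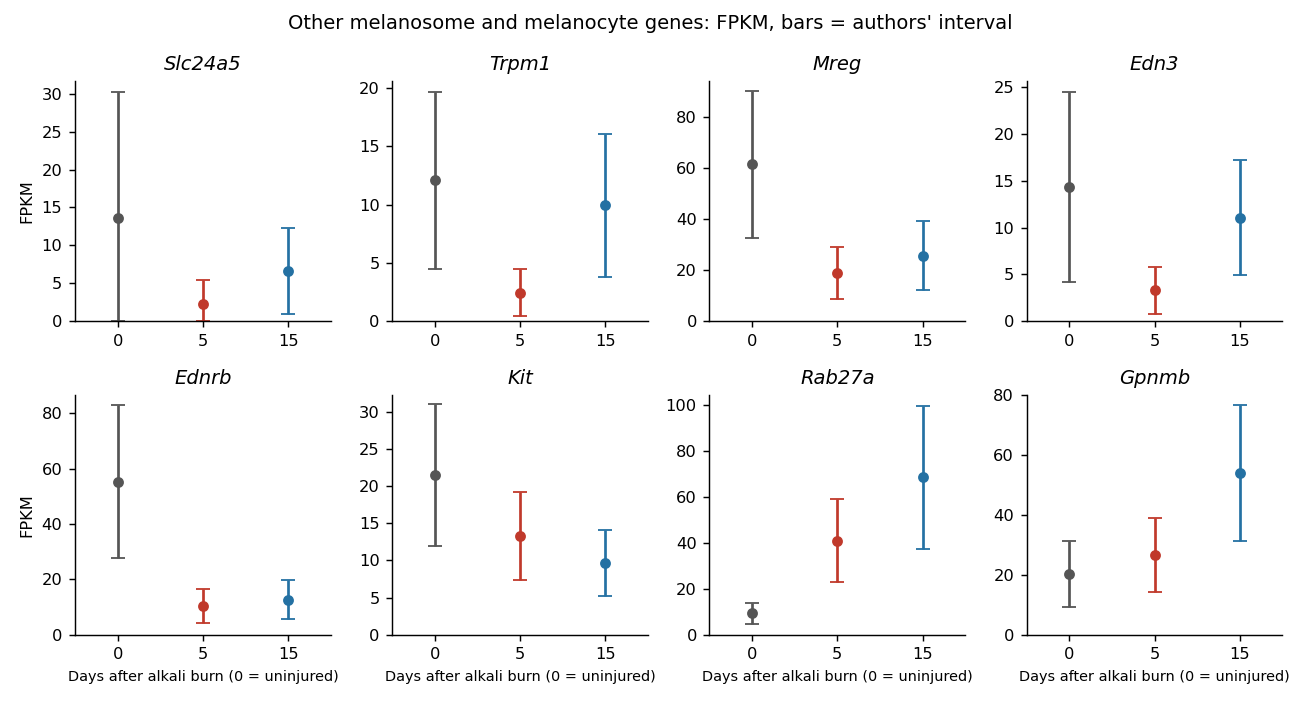
FPKM (linear axis from 0, a scale of its own in each panel) by day for 8 other genes of melanosomes and melanocytes, with the authors' interval as bars. Slc24a5, Trpm1 and Edn3 are lowest at day 5 and higher at day 15, Mreg and Ednrb stay low, Kit is lowest at day 15, and Rab27a and Gpnmb are highest at day 15.

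Markers of the tissues next to the cornea are given as levels beside the pigment genes, and their part in the result was not tested. The summed FPKM of the 9 pigment genes was 368 at day 0, 87.3 at day 5 and 254 at day 15. All of 14 lens genes were found, and their sum was 379, 34.7 and 253, and at day 5 their median log2 ratio was -2.15, 7 of the 12 that reached an FPKM of 1 being lower and apart, beside 2.5% of all loci. Cryaa, a lens crystallin, had 158, 10.6 and 72.9, and Cryba1 94.4, 10.2 and 86.9. Of the lens genes, 1 was at 0, Birc7 at day 15. No test between marker lists was possible.

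The retinal pigment epithelium, which makes melanin too, was represented by 10 genes, none of them at 0 in any group. Their sum was 41.7 at day 0, 18.5 at day 5 and 41.7 at day 15, and at day 5 the value of 9 was below that of day 0, where 55.1% of all loci were. Of the 10, 1 was lower and apart, beside 2.5% of all loci, and the median log2 ratio was -0.44. Stra6, a retinol transporter gene, was the exception at day 5, with 1.45, 4.49 and 8.68 on days 0, 5 and 15, and is part of the equal sum at day 15, when 6 of the 10 were below day 0. Rpe65, the isomerase that defines this epithelium, had 3.54 (0.956 to 6.13), 1.11 (0 to 2.23) and 2.80 (0 to 5.63). Rgr, an opsin of the same cells, had 6.96, 1.30 and 3.91, and the transthyretin gene Ttr, also of the ciliary body, 19.3, 6.20 and 16.7. The 12 photoreceptor genes used, none at 0, summed to 56.1, 27.0 and 98.1, above day 0 at day 15, with Sag, arrestin, at 11.5, 5.90 and 24.0 and Pde6g, a phosphodiesterase subunit, at 11.0, 4.35 and 15.5.

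The level of muscle genes took another course. The 12 usable skeletal muscle genes, none at 0, summed to 641 at day 0, 416 at day 5 and 90.3 at day 15, with Myl1 at 430.0, 257 and 55.8 and Tnnc2 at 78.3, 58.2 and 14.0. The 8 smooth muscle genes, none at 0, which the iris sphincter and vessel walls share, summed to 32.6, 129 and 91.0, with Acta2 at 17.1, 99.9 and 68.9 and Smtn at 4.94, 16.5 and 11.0. Acta2 alone gave most of the sum in each group. At day 5 the median log2 ratio of the 8 was 0.04 and 4 of them stood below day 0, among them Lmod1, a smooth muscle leiomodin gene, with 1.63, 1.20 and 1.42. Of the 7 usable Schwann cell genes, none at 0 and with a sum of 62.2, 44.9 and 54.6, S100b, a protein of glia and melanocytes, had 20.1 (9.17 to 31.1), 4.25 (1.05 to 7.45) and 9.99 (3.84 to 16.1), while Mbp had 33.1, 33.8 and 34.9.

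Cells that share Mitf with the pigment lineage were also looked at. The macrophage list, 8 usable of 9 genes and none at 0, summed to 134, 646 and 1021 at days 0, 5 and 15, with Lyz2 at 68.3, 385 and 685 and C1qb at 28.1, 96.2 and 182. Mast cell genes, 8 on 9 loci, summed to 31.6, 85.4 and 20.8, of which Hdc, the histamine enzyme that neutrophils also make, gave 0.761, 61.5 and 4.70. The protease gene Cpa3 has 2 rows, which ran in opposite directions at day 5, 1 with 14.4, 0.201 and 0 on days 0, 5 and 15 and the other with 4.57, 6.68 and 4.90. Cma1, another protease gene, had 4.76, 7.36 and 5.34. The 8 conjunctival and goblet cell genes, of which 1, Tff1, was at 0 at day 0, summed to 1037, 1949 and 3589, with the keratin genes Krt13 at 769, 765 and 2271 and Krt19 at 194, 1100 and 866. Not all of them rose. Cldn10 had 63.9, 4.62 and 9.07, lower and apart from day 0 on both days. Of the 7 that reached an FPKM of 1, 2 stood below day 0 at day 5 and 1 at day 15, against 55.1% and 56.9% of all loci.

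**Figure D5:**
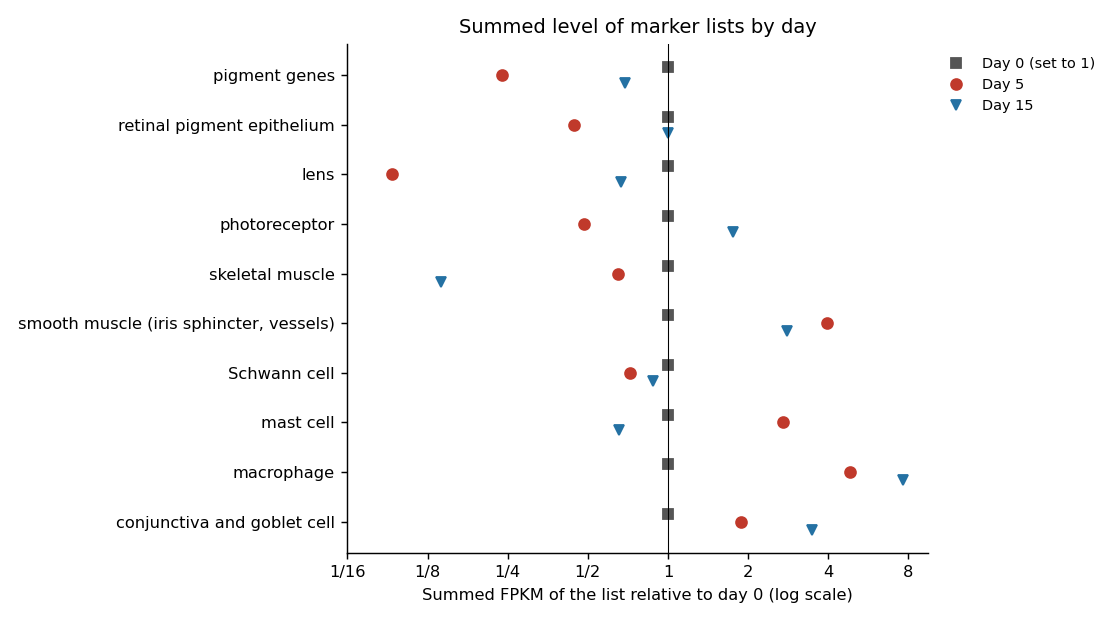
Summed FPKM of each marker list relative to its own day 0 value (log axis), for day 0 (set to 1), day 5 and day 15. The pigment genes stand at 0.237 at day 5 and 0.690 at day 15, the lens list at 0.0917 and 0.669, and skeletal muscle at 0.648 and 0.141; sums are led by their most abundant genes and carry no error bar.

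As a check of the labelled tissue, the keratocyte gene Kera had 516 FPKM and the corneal enzyme gene Aldh3a1 9150 in uninjured corneas. In the burned groups both stood far lower, Kera with 11.2 on day 5 and 16.2 on day 15, Aldh3a1 with 303 and 866. Kera was lower and apart from day 0 on both burned days, and Aldh3a1 on day 5 only. The check therefore covers the uninjured group alone. Krt12, the main keratin of corneal epithelium, has no usable value in that group, because its status was too many fragments. An FPKM of 1 was reached by 14071, 14067 and 13664 loci on days 0, 5 and 15.

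The 5 loci with a course most like the median of the pigment genes were found among 6524 single-gene loci with FPKM of at least 10 in any group. Likeness was the distance to the median pair of log2 ratios, of day 5 and of day 15 to day 0, over 3 groups. That median includes genes of low FPKM, whose ratios the pseudocount draws in. At day 5 it was -1.37, while the abundant Mlana, Tyrp1 and Dct stood at -2.33, -2.13 and -1.89. They were Sri, the calcium-binding protein sorcin (distance 0.0410), Smoc2, a secreted matrix protein (0.0930), the F-box gene Fbxo9 (0.0987), the metal ion transporter gene Slc39a8 (0.115) and Scel, sciellin of the cornified envelope (0.117). Smoc2 had 15.4 (8.75 to 22.1) at day 0, 5.20 (2.58 to 7.82) at day 5 and 13.4 (7.98 to 18.8) at day 15, lower and apart at day 5 and higher and apart at day 15 against day 5. The other 4 were not apart in any comparison. None of the 5 is a lens or pigment epithelium marker of the lists used here, but few of those markers could have been. Of the pigment epithelium list only Ttr reached an FPKM of 10. The lens genes that did had day 5 log2 ratios from -3.78 for Cryaa to -2.53 for Crybb2. No conclusion is drawn from their absence.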

How the data were processed

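Polyadenylated RNA of 6 cornea samples was sequenced, per the labels' protocols. The authors deposited 1 gene table of FPKM with 1 pooled value, an interval and a status per group. Tools named per the submitters' processing notes are Cufflinks 2.2.1, Cuffdiff without a version, Bowtie2 2.2.6 and TopHat2 2.1.0, with mm10 as the build. Strandedness, library normalization and the meaning of the interval are not given in the sources used here. FPKM hold no read totals, so depth is unknown.

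From the deposited FPKM, log2 ratios with a pseudocount of 1 and the call of loci as apart were computed on the whole table, after the rule was tested on simulated data. The simulated intervals were narrower than the authors' and no locus of low FPKM was changed. That test therefore does not show how the rule works for low genes here. Coordinates are 1-based on mm10; gene neighbours come from GENCODE M21 (GRCm38). There are 2 pathway lists and 9 marker lists. Members on rows that name a gene outside a list were left out of its counts. Of the marker genes, 1 is not reported here and was left out of the sum of its list. Named genes were all 9 pigment genes, per comparison the 4 largest ratios and any locus apart of each pathway list, the 2 most abundant day 0 markers of each other list, Sox10, Kit and Rpe65, and the 5 nearest loci. Others (Mlph, Myo5a, Kitl, Usf1, Hdc, Stra6, Lmod1, Birc7, Tff1, Cldn10, Crybb2, Dgka, Kera, Aldh3a1, Krt12, Trpm3 and the miRNA rows) were chosen after their values were seen. The pigment genes and the lists were chosen with earlier results of these data known. Python 3.11.15, numpy 2.4.6, pandas 2.3.3 and matplotlib 3.10.9 were used.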

Additional observations from a re-analysis of the deposited data

How the results depend on the processing

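The count of pigment genes apart depended on the rule for the intervals. At day 5 against day 0, the count of 1 became 3 with intervals at 0.7 of their half-width (7.07% of all loci lower) and 5 with intervals ignored, all lower. At day 15 against day 5, the count of 2 became 4 under each of these settings (1.51% and 2.62% of all loci higher), all higher, and 0 when a log2 ratio of at least 2 was asked. At day 15 against day 0 the count was 0 under every setting run. The median log2 ratios kept their sign but not their size under pseudocounts of 0.1 and 5, no filter or FPKM of at least 5, columns rescaled by the median ratio over 7611 loci, and without Pmel, an alternative chosen after seeing the data. They ranged from -2.01 to -0.79 around -1.37 at day 5 against day 0, from -0.74 to -0.16 around -0.27 at day 15 against day 0 and from 0.46 to 1.48 around 1.07 at day 15 against day 5, the extremes being FPKM of at least 5 and the pseudocount of 5. Every pigment gene was lower at day 5 than in both other groups. For the 2 comparisons with day 5, only rescaled columns could therefore have turned the sign of the median. At day 15 against day 0, 6 of the 8 ratios were below 0, so that neither pseudocount could have turned that sign. Of 294 values of single genes under these alternatives, 282 kept their direction and call, 10 gained a call and 2 lost it. Each pigment gene has 1 locus, so that summing loci of a symbol changed nothing. Leaving out Pmel cannot change the value of another gene either. The values under these 2 settings are among the 282 and were bound to be kept. The direction of a single gene could have changed only with rescaled columns, since the other settings cannot turn the sign of its ratio. Leaving out a replicate was not run, as there are no values of single samples. No paired analysis was possible because the columns are pooled over samples and carry no replicate numbers. FPKM below 1, as for Gpr143 and Sox10, limits what can be read of low genes.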
